A study of Homo sapiens with 9 samples.

Results

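The enzymes that make serine from glucose and pass its carbon to folate were measured at the RNA level in cells of the human renal carcinoma line ACHN, with and without piericidin A. This natural compound blocks complex I of the respiratory chain. The set holds 10 genes, PHGDH, PSAT1, PSPH, SHMT1, SHMT2, MTHFD1, MTHFD1L, MTHFD2, ALDH1L2 and the proline enzyme PYCR1, chosen by name. Each matched 1 gene of the 18859 in the authors' table of log2 expression, and 30673 genes had a value in the full table. All were annotated as protein-coding.

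The study sequenced RNA from 3 groups of 3 libraries to explore how piericidin A acts on renal carcinoma. One group received 0.1% DMSO, the solvent control, and the others received 25 nM or 50 nM piericidin A. All cells grew attached in MEM medium in multi-well plates and carried no stated genetic change. The sources used here do not give the solvent content of the treated groups, the treatment time, the RNA selection or whether libraries kept the strand. The labels do not say that the 3 libraries of a group came from separate cultures, so p-values measure only the spread between these libraries, which may be technical. A single cell line was used, and both doses were compared with the same 3 DMSO libraries.

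Serine synthesis starts from the glycolytic intermediate 3-phosphoglycerate. PHGDH oxidises it, PSAT1 transfers an amino group from glutamate and PSPH removes the phosphate. Serine hydroxymethyltransferases then split serine into glycine and a one-carbon unit carried by tetrahydrofolate, SHMT2 in mitochondria and SHMT1 mainly in the cytosol. In mitochondria MTHFD2 oxidises that unit and MTHFD1L or ALDH1L2 releases it as formate or carbon dioxide, while the trifunctional MTHFD1 handles formate and folate in the cytosol for purine and thymidylate synthesis. The oxidising steps need NAD+ or NADP+, and complex I regenerates NAD+ in mitochondria. Several genes of the pathway are known targets of ATF4, a transcription factor of the stress response to amino acid shortage and mitochondrial damage.

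PSAT1 showed the largest rise of the set, to 1.99-fold its DMSO level at 25 nM and 1.79-fold at 50 nM. The mitochondrial enzymes SHMT2 and MTHFD2 and the proline enzyme PYCR1 rose at both doses, with higher levels at 25 nM than at 50 nM. PHGDH and the cytosolic SHMT1 rose at 25 nM and did not pass the test against DMSO at 50 nM, where their levels were below those at 25 nM. MTHFD1, the cytosolic enzyme, fell at 50 nM, and ALDH1L2 was the least abundant member, at under 0.5 FPKM in every library. The plot of levels by library shows all 10 genes.

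**Figure D1:**
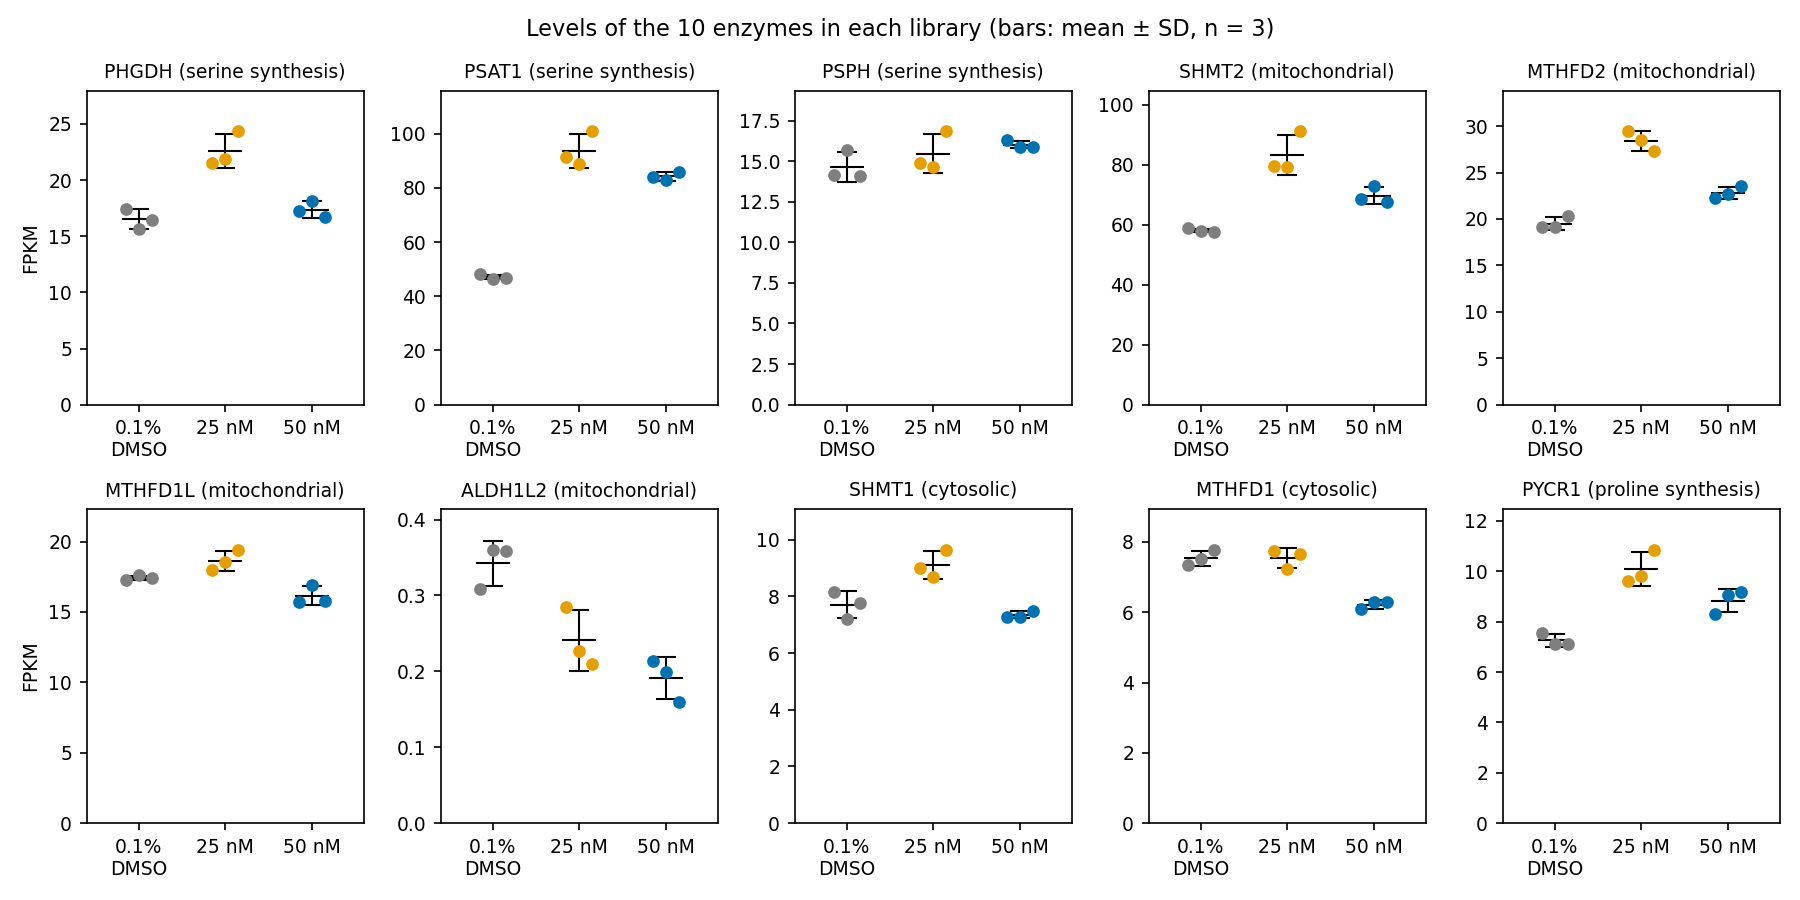
Level of each of the 10 enzymes in FPKM (y axis, from 0, with its own scale in each panel) in the 3 libraries each of 0.1% DMSO, 25 nM and 50 nM piericidin A (points), with the mean and SD as bars. PSAT1 lies between 46.5 and 48.1 FPKM in DMSO and between 82.8 and 101 FPKM in the 6 treated libraries, while MTHFD1 is lowest in the 3 libraries at 50 nM.

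Levels were FPKM, fragments scaled by gene length and by library, so that genes of unequal length can be set side by side. Changes were tested with limma on log2(FPKM + 0.1) in the 15541 genes that reached 0.5 FPKM in 3 or more libraries. A gene was counted as risen or fallen at a Benjamini-Hochberg adjusted p under 0.05 over all those genes. Fold changes are on that log2 scale, with the standard error (SE) of the fit. Recovered fragments of the genes above 0 in every library numbered 24365472 to 29245674 per library. The cells carried renal markers such as PAX8 (66.0 to 93.5 FPKM), KRT8 and MET. Of the 8 renal markers listed, CDH6 and LRP2 matched no gene with a value. Of the 6 with a value, 5 passed 0.5 FPKM, CUBN being the exception. The summed renal markers ran from 383 to 386 FPKM in DMSO, 365 to 378 FPKM at 25 nM and 338 to 346 FPKM at 50 nM. Its members moved in opposite ways, MET from a mean of 148 FPKM in DMSO to 111 and 88.9 FPKM, and PAX8 from 71.3 to 67.0 and 87.9 FPKM. The 3 endothelial markers summed to at most 0.0303 FPKM, the 1 leukocyte marker with a value, CD14, reached 0.154 FPKM, and the 4 fibroblast and smooth muscle markers summed to 6.47 to 7.63 FPKM. That sum overlapped between the groups, while PDGFRB was lower in all treated libraries (0.309 to 0.437 against 0.633 to 0.756 FPKM in DMSO) and COL1A1 was higher at 50 nM (2.48 to 3.21 against 1.68 to 1.76 FPKM). The part of these markers in the results was not tested. These are bulk samples, so fewer cells with a transcript and less of it per cell cannot be told apart.

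Of the 9 members tested, 6 rose and 0 fell at 25 nM against DMSO, where 52.0% of all tested genes changed, 26.3% rising and 25.8% falling. Their median log2 fold change was 0.45, against 0.02 over all tested genes. At 50 nM against DMSO, 4 rose and 1 fell, where 60.7% of all genes changed, 29.2% rising and 31.5% falling. The median of the members was 0.13, against 0.00 over all tested genes. Between the doses, 0 members were higher and 8 were lower at 50 nM than at 25 nM, where 33.5% of all genes differed and 18.8% were lower. The median there was -0.26, against -0.01 over all tested genes. The 0 falls at 25 nM and the 0 higher values between the doses were also 0 at an unadjusted limma p under 0.05. The share of members that changed was close to that of all genes at 50 nM, and the shares that rose at 25 nM and that were lower at 50 nM than at 25 nM lay above the background. The libraries at 25 nM and of DMSO did not overlap for 7 of the 9, all higher at 25 nM, against 62.6% of all tested genes (31.5% higher, 31.1% lower). At 50 nM they did not overlap DMSO for 5 members that were higher and 2 that were lower, against 70.4% of all genes (33.9% higher, 36.5% lower). The doses did not overlap each other for 8 members, all lower at 50 nM, against 45.4% of all genes (21.0% higher, 24.4% lower). The 6 rises at 25 nM and the 5 changes at 50 nM against DMSO passed the threshold in all 15 alternative fits of each comparison.

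**Figure D2:**
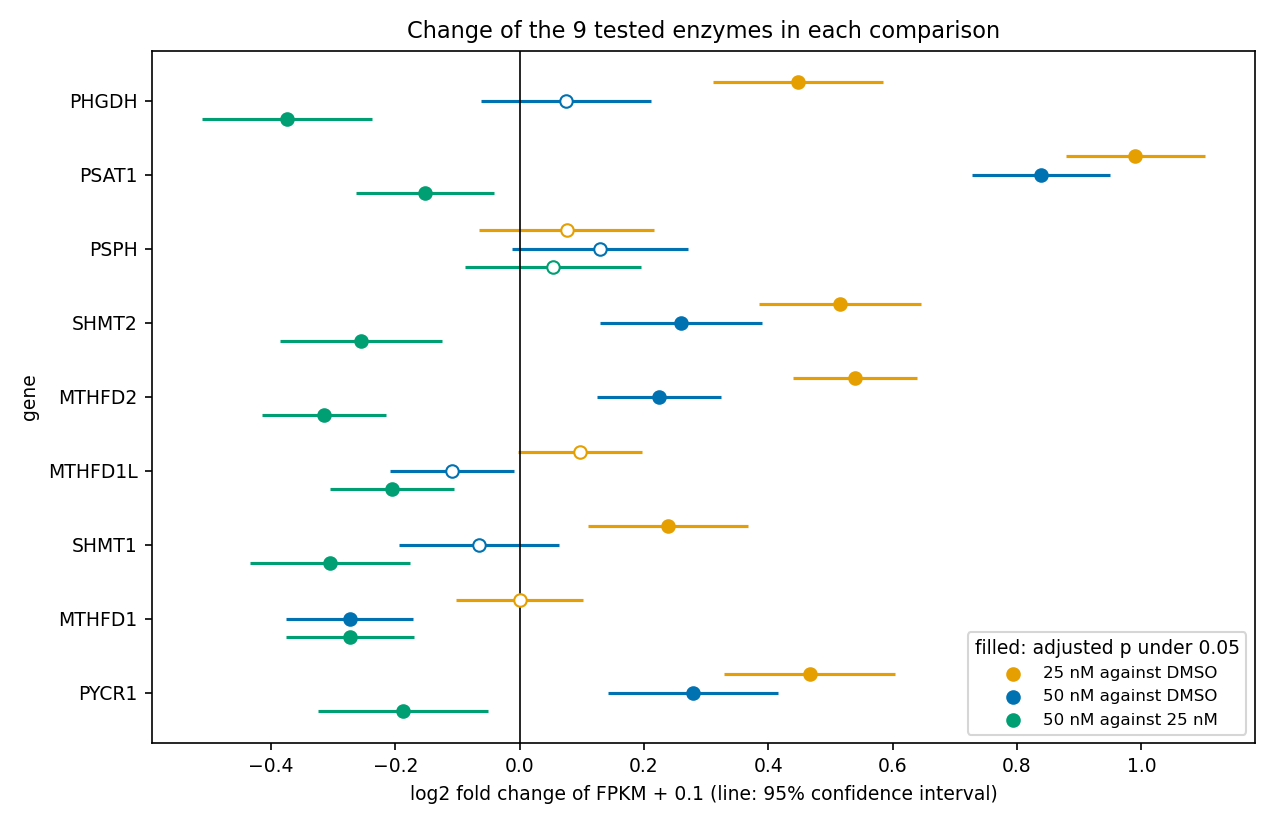
Log2 fold change of FPKM + 0.1 (x axis) for the 9 tested enzymes (y axis) in the 3 comparisons, with 95% confidence intervals as lines and filled points where the adjusted p was under 0.05. PSAT1 has the largest changes, 0.99 at 25 nM and 0.84 at 50 nM against DMSO, and 8 of the 9 points for 50 nM against 25 nM are filled and below 0.

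The bases just upstream of the start sites of PSAT1, MTHFD2 and SHMT1 are shown because these genes stand for the strongest riser, a mitochondrial riser and a cytosolic enzyme, and because they hold more than 1 CCAAT box, a motif bound by NF-Y and known from many promoters. RefSeq promoter entries on GRCh38.p14 matched 6 of the 10 members. Each stretch ends before the first annotated exon base and is written in the direction of the gene, with CCAAT or its reverse complement ATTGG in capitals.
PSAT1, chr9:78296875-78297124, plus strand: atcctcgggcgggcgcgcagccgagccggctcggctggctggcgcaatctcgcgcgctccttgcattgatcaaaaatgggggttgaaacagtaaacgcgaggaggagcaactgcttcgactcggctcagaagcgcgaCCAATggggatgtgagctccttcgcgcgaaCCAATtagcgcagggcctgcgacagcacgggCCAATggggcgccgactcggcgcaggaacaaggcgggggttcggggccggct
MTHFD2, chr2:74198365-74198561, plus strand: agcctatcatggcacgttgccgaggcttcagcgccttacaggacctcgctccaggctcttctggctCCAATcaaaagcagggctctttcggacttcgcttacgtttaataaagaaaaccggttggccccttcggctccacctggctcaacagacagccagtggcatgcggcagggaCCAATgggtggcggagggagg
SHMT1, chr17:18363564-18363800, minus strand: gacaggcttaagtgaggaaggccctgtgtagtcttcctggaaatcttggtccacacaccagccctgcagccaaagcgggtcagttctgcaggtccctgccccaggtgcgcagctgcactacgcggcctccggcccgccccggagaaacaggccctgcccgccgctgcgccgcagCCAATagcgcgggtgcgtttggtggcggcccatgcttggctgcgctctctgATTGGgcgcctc
The PSAT1 stretch of 250 bases holds 3 CCAAT boxes, all in the direction of the gene, and the MTHFD2 stretch of 197 bases holds 2. The SHMT1 stretch of 237 bases holds 1 in each direction. The motif was found on either strand in 6 of the 6 member promoters (from 250 bases before to 50 after the start), in 36.9% of the 9405 promoters of tested genes and in 35.7% of all 27305 promoters. It was chosen after the sequences had been read, and it stood in the promoters of members that rose, that fell and that did neither, so it does not separate them.

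The C/EBP-ATF response element, TGATGNAA on either strand, is the site bound by ATF4 with a C/EBP partner. It was searched in the same windows because ATF4 targets are in the pathway. The element is shown for MTHFD1L, which passed neither test against DMSO. For comparison it is shown for ASNS, a reference ATF4 target that rose at both doses. The element is in capitals in a window of 30 bases written in the direction of the gene.
MTHFD1L, chr6:150866346-150866375, plus strand: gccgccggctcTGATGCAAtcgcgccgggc
ASNS, chr7:97872458-97872487, minus strand: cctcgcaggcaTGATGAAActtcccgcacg
The element lay 129 bases upstream of the RefSeq start of MTHFD1L, which is within the gene as the authors' table places it, and 68 bases upstream of that of ASNS. It was found in 1 of the 6 member promoters, in 1.57% of promoters of tested genes and in 3.67% of all promoters. Among the further genes described below, 3 of 45 promoters held it, those of ASNS, CHAC1 and ATF3. CHAC1 was near the filter of 0.5 FPKM, at 0.56 to 0.65 FPKM in DMSO, 0.23 to 0.33 at 25 nM and 0.41 to 0.51 at 50 nM. It entered the fit through its DMSO libraries, where it was highest, so its test is no independent support for a fall. Its log2 fold change was -0.89 at 25 nM, and it did not pass at 50 nM. ATF3 passed at neither dose against DMSO. The E-box CACGTG, the same on both strands, was found in MTHFD1L and MTHFD1, 2 of the 6 members, and in 10.3% of promoters of tested genes and 7.43% of all promoters. A match describes these letters only, and the windows of PSAT1, PHGDH, MTHFD2 and SHMT1 hold neither motif.

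In serine synthesis, 2 of the 3 enzymes rose at 25 nM and 1 rose at 50 nM, and the 3 steps of the pathway differed widely. PSAT1 (ENSG00000135069, hg38 chr9:78297143-78330093, plus strand), the aminotransferase of the middle step, had 48.1, 46.5 and 46.6 FPKM in DMSO, 91.6, 88.9 and 101 FPKM at 25 nM and 84.0, 82.8 and 86.0 FPKM at 50 nM. Every treated library was far above every DMSO library, and the libraries at 25 nM were all above those at 50 nM. The log2 fold change was 0.99 (SE 0.05, limma adjusted p = 2.05e-06) at 25 nM and 0.84 (SE 0.05, limma adjusted p = 1.98e-06) at 50 nM, or 1.99-fold and 1.79-fold. The rise at 25 nM was larger than that of 94.2% of tested genes, and at 50 nM larger than 85.7%. The difference between the doses was small, a log2 value of -0.15 (limma adjusted p = 0.0409). It passed in only 5 of 15 alternative fits, with adjusted p from 0.0253 to 0.400 over them, and quantile normalization turned its sign (0.04). It was lost when 25 nM replicate 1 (limma adjusted p = 0.0638) or 50 nM replicate 1, 2 or 3 was left out (limma adjusted p = 0.100, 0.111 and 0.0610).

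PHGDH (ENSG00000092621, hg38 chr1:119659798-119744215, plus strand), the dehydrogenase that commits carbon to serine, had 17.4, 15.6 and 16.5 FPKM in DMSO, 21.5, 21.9 and 24.3 FPKM at 25 nM and 17.2, 18.2 and 16.7 FPKM at 50 nM. The 25 nM libraries stood above all others, while those at 50 nM overlapped DMSO. Its log2 fold change was 0.45 (SE 0.06, limma adjusted p = 3.28e-04) at 25 nM and 0.07 at 50 nM, with a 95% confidence interval of -0.06 to 0.21 (limma adjusted p = 0.312). Scaling by recovered fragments or by quantiles brought the 50 nM value past the threshold (limma adjusted p = 0.0457 and 0.0286). Directly between the doses PHGDH was lower at 50 nM by a log2 value of -0.37 (limma adjusted p = 0.00209), and 4.45% of all tested genes had a lower value in that comparison.

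PSPH (ENSG00000146733, hg38 chr7:56011051-56051604, minus strand), the phosphatase of the last step, did not pass the test in any comparison. It ranged from 14.1 to 15.7 FPKM in DMSO, from 14.6 to 16.8 FPKM at 25 nM and from 15.9 to 16.3 FPKM at 50 nM. The log2 difference from DMSO was 0.08 at 25 nM, with a 95% confidence interval of -0.07 to 0.22, and 0.13 at 50 nM, with one of -0.01 to 0.27 (limma adjusted p = 0.338 and 0.101). The libraries at 50 nM lay above those of DMSO without overlap, and 4 of 15 alternative fits called that difference. The 3 enzymes together summed to 78.2 ± 1.25 FPKM in DMSO, 132 ± 8.91 FPKM at 25 nM and 118 ± 0.87 FPKM at 50 nM (SD, n = 3), and PSAT1 carried most of the gain.

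In the mitochondrial folate arm, SHMT2 and MTHFD2 rose at both doses, MTHFD1L passed neither test against DMSO, and ALDH1L2 was too low to enter the fit. SHMT2 (ENSG00000182199, hg38 chr12:57229327-57234935, plus strand), which makes glycine and methylene-tetrahydrofolate from serine, had 58.8, 57.9 and 57.7 FPKM in DMSO, 79.6, 79.2 and 91.0 FPKM at 25 nM and 68.5, 72.9 and 67.5 FPKM at 50 nM. The 3 groups did not overlap, with 50 nM between the others. The log2 fold change was 0.52 (SE 0.06, limma adjusted p = 1.23e-04) at 25 nM and 0.26 (SE 0.06, limma adjusted p = 0.00370) at 50 nM. The doses differed by -0.26 (limma adjusted p = 0.00942), which quantile normalization reduced to -0.04 (limma adjusted p = 0.404).

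MTHFD2 (ENSG00000065911, hg38 chr2:74198562-74217565, plus strand), the dehydrogenase and cyclohydrolase known for high levels in embryos and tumours, had 19.1, 19.1 and 20.3 FPKM in DMSO, 29.4, 28.5 and 27.3 FPKM at 25 nM and 22.2, 22.6 and 23.5 FPKM at 50 nM. Again the groups did not overlap and the 25 nM libraries were highest. The log2 fold change was 0.54 (SE 0.04, limma adjusted p = 2.47e-05) at 25 nM, 0.22 (SE 0.04, limma adjusted p = 0.00188) at 50 nM and -0.32 (limma adjusted p = 0.00113) between the doses. These calls passed in all 15 alternative fits. The reference names list 7 pseudogenes of MTHFD2, of which 1 has a value in the tables, at up to 1.55 FPKM. They also list 4 of PSAT1 and 1 of PSPH, none with a value. Those of SHMT1 and MTHFD1, 1 each, reached at most 0.0885 and 0.0293 FPKM. How the authors' counting split reads between copies was not given for any of these genes.

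MTHFD1L (ENSG00000120254, hg38 chr6:150865549-151101887, plus strand), the ligase that frees formate in mitochondria, had 17.3, 17.6 and 17.4 FPKM in DMSO, 18.0, 18.5 and 19.4 FPKM at 25 nM and 15.7, 16.9 and 15.8 FPKM at 50 nM. All libraries at 25 nM lay above DMSO and all at 50 nM below it, by small margins. Neither difference from DMSO passed, with log2 values of 0.10 (95% confidence interval -0.00 to 0.20, limma adjusted p = 0.0951) and -0.11 (95% confidence interval -0.21 to -0.01, limma adjusted p = 0.0569). The doses differed from each other by -0.21 (SE 0.04, limma adjusted p = 0.00761), a call lost with scaling by fragments or by quantiles (limma adjusted p = 0.0780 and 0.0691).

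ALDH1L2 (ENSG00000136010, hg38 chr12:105019784-105084577, minus strand), the mitochondrial 10-formyltetrahydrofolate dehydrogenase, had 0.308, 0.360 and 0.358 FPKM in DMSO, 0.285, 0.227 and 0.210 FPKM at 25 nM and 0.214, 0.199 and 0.160 FPKM at 50 nM. These values rest on 37 to 89 fragments per library. The treated libraries were all below those of DMSO, and the doses overlapped each other. The exact two-sided permutation test gave p = 0.1 for each dose against DMSO, the smallest that 3 against 3 libraries allow, with levels 0.699-fold and 0.555-fold those of DMSO (p = 0.15 adjusted over the 3 comparisons). With no filter on low values, limma gave a log2 fold change of -0.38 (adjusted p = 0.194) at 25 nM and -0.61 (adjusted p = 0.0350) at 50 nM. The gene overlaps C12orf45 on the opposite strand, which had means of 21.1 to 23.1 FPKM, and the part of its reads in the value was not tested.

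In the cytosolic arm, 1 of the 2 enzymes rose at 25 nM and the other fell at 50 nM. SHMT1 (ENSG00000176974, hg38 chr17:18327860-18363563, minus strand), the cytosolic serine hydroxymethyltransferase, had 8.14, 7.21 and 7.76 FPKM in DMSO, 8.995, 8.69 and 9.63 FPKM at 25 nM and 7.27, 7.28 and 7.49 FPKM at 50 nM. The 25 nM libraries were above all others, and those at 50 nM lay within the range of DMSO. The log2 fold change was 0.24 (SE 0.06, limma adjusted p = 0.00664) at 25 nM and -0.07 at 50 nM, with a 95% confidence interval of -0.19 to 0.06 (limma adjusted p = 0.343). Between the doses it was -0.30 (limma adjusted p = 0.00397), a call kept in all 15 alternative fits. SMCR8, which overlaps its end on the opposite strand, had means of 10.6, 7.15 and 7.57 FPKM in DMSO, 25 nM and 50 nM.

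MTHFD1 (ENSG00000100714, hg38 chr14:64388031-64463457, plus strand), the trifunctional cytosolic enzyme, had 7.34, 7.503 and 7.77 FPKM in DMSO, 7.75, 7.22 and 7.64 FPKM at 25 nM and 6.08, 6.28 and 6.29 FPKM at 50 nM. DMSO and 25 nM overlapped, and the 50 nM libraries were below both. The log2 fold change was -0.27 at 50 nM against DMSO (SE 0.05, limma adjusted p = 7.07e-04) and -0.27 against 25 nM (limma adjusted p = 0.00232), both kept in all 15 alternative fits. At 25 nM the 95% confidence interval of the difference from DMSO was -0.10 to 0.10 (limma adjusted p = 0.999). MTHFD1 is the longest member that was tested, and the longest of 4 equal length classes of coding genes had a median log2 fold change of -0.21 at 25 nM and -0.23 at 50 nM. The shortest class, which holds PSAT1, PSPH and PYCR1, had medians of 0.19 and 0.08, and the part of gene length in the members' values was not tested. ZBTB25 and a pair of antisense transcripts overlap MTHFD1 on the opposite strand, with means of at most 3.68 FPKM.

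PYCR1 (ENSG00000183010, hg38 chr17:81932384-81942412, minus strand), which makes proline in mitochondria and regenerates NAD(P)+, is a known ATF4 target. It had 7.55, 7.13 and 7.10 FPKM in DMSO, 9.59, 9.80 and 10.8 FPKM at 25 nM and 8.30, 9.04 and 9.17 FPKM at 50 nM. All treated libraries exceeded all DMSO libraries, and those at 25 nM exceeded those at 50 nM. The log2 fold change was 0.47 (SE 0.06, limma adjusted p = 2.68e-04) at 25 nM and 0.28 (SE 0.06, limma adjusted p = 0.00332) at 50 nM. The difference between doses, -0.19 (limma adjusted p = 0.0410), held in only 4 of 15 alternative fits, with adjusted p from 0.0358 to 0.221. It was lost without any single 50 nM replicate (limma adjusted p up to 0.142, without replicate 1) and without 25 nM replicate 2 or 3 (limma adjusted p = 0.0576 and 0.0785).

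Replicate 3 at 25 nM had the highest summed FPKM of the 9 libraries, and 7 of the 10 members were highest there among the 25 nM libraries. The 6 rises at 25 nM remained called without it, with log2 fold changes of 0.94 for PSAT1, 0.57 for MTHFD2, 0.45 for SHMT2, 0.41 for PYCR1, 0.39 for PHGDH and 0.20 for SHMT1 (limma adjusted p at most 0.0147).

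The ratio of a mitochondrial to a cytosolic enzyme within a library compares the arms directly. It is free of any factor shared by all genes of that library. Gene length is no such factor, and the cytosolic gene of each pair is the longer one (SHMT1 7281 and MTHFD1 9377 bases, against 4838 to 5021). The length class of SHMT2, MTHFD2 and MTHFD1L had median log2 fold changes of 0.02 at 25 nM and -0.08 at 50 nM. That of SHMT1 had -0.08 and -0.14, and that of MTHFD1 had -0.21 and -0.23. The part of gene length in the ratios was not tested. SHMT2 to SHMT1 was 7.22, 8.03 and 7.44 in DMSO, 8.85, 9.11 and 9.45 at 25 nM and 9.42, 10.01 and 9.01 at 50 nM. MTHFD2 to MTHFD1 was 2.602, 2.55 and 2.61 in DMSO, 3.80, 3.94 and 3.57 at 25 nM and 3.66, 3.60 and 3.74 at 50 nM. In both pairs every treated library had a higher ratio than every DMSO library, and the doses overlapped each other. The geometric mean of SHMT2 to SHMT1 was 1.21-fold that of DMSO at 25 nM and 1.25-fold at 50 nM, and that of MTHFD2 to MTHFD1 was 1.46-fold and 1.42-fold. Each of these 4 comparisons gave p = 0.1 in the exact two-sided permutation test, the smallest possible with 3 against 3 libraries (0.18 after Benjamini-Hochberg adjustment over the 9 ratio comparisons). MTHFD1L to MTHFD1 moved less, from a geometric mean of 2.31 in DMSO to 2.47 at 25 nM (exact permutation p = 0.3, 0.45 adjusted) and 2.595 at 50 nM (exact permutation p = 0.1, 0.18 adjusted), and only the 50 nM libraries were clear of DMSO. Quantile normalization, which is no single factor and was tried on the ratios after seeing the data, kept the SHMT2 to SHMT1 and MTHFD2 to MTHFD1 ratios above DMSO, with log2 differences of 0.14 and 0.46 at 25 nM and 0.40 and 0.56 at 50 nM. It moved the doses apart, with SHMT2 to SHMT1 higher at 50 nM than at 25 nM by 0.25 in place of 0.05. At 50 nM the MTHFD2 to MTHFD1 ratio combined a risen MTHFD2 with a fallen MTHFD1, whereas at 25 nM MTHFD1 was level with DMSO. ALDH1L1, the cytosolic partner of ALDH1L2, had a mean of at most 0.00863 FPKM in any group, so that pair has no ratio.

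**Figure D3:**
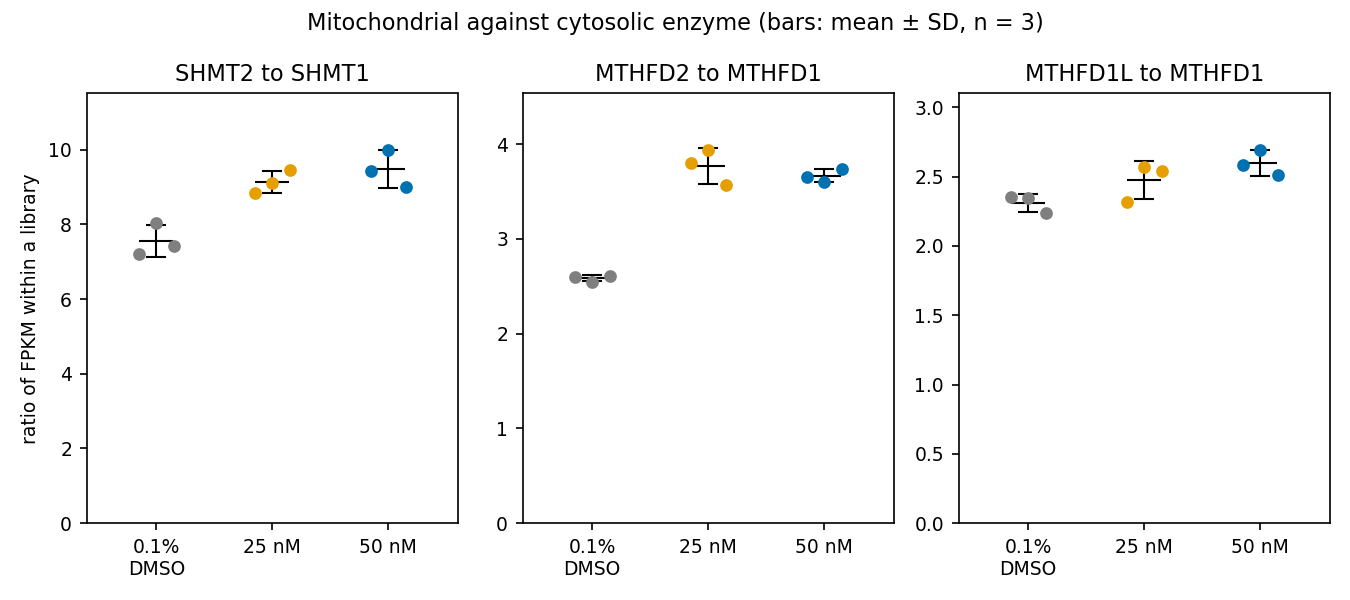
Ratio of the FPKM of a mitochondrial to that of a cytosolic enzyme within each library (y axis, from 0) for 3 enzyme pairs, with points for the libraries of 0.1% DMSO, 25 nM and 50 nM and bars for the mean and SD (n = 3). The SHMT2 to SHMT1 and MTHFD2 to MTHFD1 ratios of all 6 treated libraries lie above all DMSO libraries.

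The summed FPKM of each arm was highest at 25 nM. The mitochondrial folate enzymes summed to 95.4 ± 0.40 FPKM in DMSO, 131 ± 6.41 FPKM at 25 nM and 109 ± 3.36 FPKM at 50 nM (SD, n = 3). The cytosolic enzymes summed to 15.2 ± 0.46, 16.6 ± 0.69 and 13.6 ± 0.21 FPKM in the same groups. PSAT1 and SHMT2 together made up 53.6% of the members' summed FPKM in DMSO, 61.2% at 25 nM and 61.8% at 50 nM. SHMT2 was the most abundant member in DMSO and PSAT1 at 50 nM. At 25 nM the ranges of the pair overlapped, but PSAT1 was above SHMT2 within each library. In DMSO the levels went on through MTHFD2, MTHFD1L, PHGDH and PSPH to SHMT1, MTHFD1, PYCR1 and ALDH1L2. MTHFD1L and PHGDH, PHGDH and PSPH, and SHMT1, MTHFD1 and PYCR1 did not differ beyond the range of their libraries. Within each DMSO library SHMT1 was nevertheless above PYCR1.

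The members fell into several patterns over the 9 libraries. Likeness was measured as the root mean square difference of log2 values centred on the DMSO mean. The closest pair was SHMT2 and PYCR1, at 0.06, followed by SHMT2 and MTHFD2, at 0.09. Among the 6766 protein-coding genes with a mean of at least 5 FPKM, the nearest to PSAT1 was ASNS, asparagine synthetase, at 0.06, followed by NUAK2 and CCDC167. Those nearest to SHMT2 were CLPP, a mitochondrial protease subunit, the chaperonin subunit CCT3 and COPS6, all within 0.04. Nearest to SHMT1 were CNN3, SSRP1 and SRI, and nearest to MTHFD1 were BTBD1, HNRNPF and BFAR, also within 0.04. These values describe shared profiles over the same libraries, with no test.

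Further genes around the pathway came from 6 lists of which 53 genes were tested. At 25 nM 21 rose and 13 fell, and at 50 nM 21 rose and 15 fell, with median log2 fold changes of 0.11 and 0.04 against 0.02 and 0.00 over all tested genes. Over all tested genes 26.3% rose and 25.8% fell at 25 nM, and 29.2% rose and 31.5% fell at 50 nM. Among the genes that bring in, split or use serine, 3 rose and 4 fell of 16 at 25 nM, and 6 rose and 7 fell at 50 nM. AMT, the aminomethyltransferase of the glycine cleavage system, had 1.91, 1.99 and 1.76 FPKM in DMSO, 2.95, 2.43 and 3.03 FPKM at 25 nM and 5.20, 4.85 and 5.26 FPKM at 50 nM. It was thus highest at the higher dose, unlike the members that rose, with log2 fold changes of 0.54 and 1.39 (limma adjusted p = 9.76e-04 and 3.23e-06). SPTLC2, a subunit of the serine palmitoyltransferase that draws serine into sphingolipids, fell from 20.7 ± 0.58 FPKM to 12.4 ± 0.88 and 9.91 ± 0.12 FPKM (SD, n = 3). Its log2 fold changes were -0.74 and -1.05 (limma adjusted p = 1.31e-05 and 1.12e-06). SFXN3, a sideroflexin of the family that carries serine into mitochondria, fell at both doses (-0.28 each), and DLD, which serves glycine cleavage and other complexes, fell at 50 nM (-0.34) and had -0.08 at 25 nM without passing.

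Of 8 other folate enzymes tested, 3 rose and 2 fell at 25 nM, and 3 rose and 1 fell at 50 nM. The shares of all tested genes were 26.3% rising and 25.8% falling at 25 nM, and 29.2% rising and 31.5% falling at 50 nM. FPGS, which adds glutamates that keep folate in the cell, rose at both doses (0.29 and 0.20). MTHFD2L, a relative of MTHFD2 at 0.772 ± 0.04 FPKM in DMSO, had 0.25 at 25 nM without passing (it passed with plain eBayes, limma adjusted p = 0.0156) and rose by 0.39 at 50 nM, which quantile normalization turned to -0.01. MTHFSD, a gene related to methenyltetrahydrofolate synthetase, had -0.09 at 25 nM without passing and rose by 0.27 at 50 nM.

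Of 4 folate carriers tested, SLC19A1, the reduced folate carrier of the cell membrane, rose at both doses (0.38 and 0.67) and SLC25A32, the mitochondrial folate carrier, fell at both (-0.57 and -0.43). SLC46A1 and FOLR1 were at under 1 FPKM on average and did not pass, with values of 0.04 and 0.12 at 25 nM and 0.16 and 0.12 at 50 nM. Among the 5 enzymes that use folate units, 2 rose and 1 fell at both doses, the rises at 50 nM being lost in some alternatives. MTR, methionine synthase, fell by 0.41 at 25 nM and by 0.47 at 50 nM on the log2 scale. ATIC of purine synthesis (0.29 and 0.16) and TYMS of thymidylate synthesis (0.30 and 0.17) rose, and MTRR did not pass (-0.01 and -0.06). The rises at 50 nM were close to the threshold. That of TYMS (limma adjusted p = 0.0270) was lost with no filter on low values (0.0517) and without DMSO replicate 1 or 3 or 50 nM replicate 1 or 3 (limma adjusted p = 0.0812, 0.0729, 0.0540 and 0.0820). That of ATIC (limma adjusted p = 0.0223) was lost without DMSO replicate 2 or 3 or 50 nM replicate 3 (limma adjusted p = 0.0715, 0.0680 and 0.0715). Among 6 proline and ornithine enzymes, 4 rose and 1 fell at 25 nM, and 4 rose and 2 fell at 50 nM. For these lists too, the shares of all tested genes were 26.3% rising and 25.8% falling at 25 nM. At 50 nM they were 29.2% and 31.5%. PYCR3, a cytosolic relative of PYCR1, rose by 0.42 and 0.53. ALDH18A1, the enzyme that starts proline synthesis from glutamate, had -0.10 at 25 nM without passing and fell at 50 nM (-0.41). Its 25 nM value passed when scaled by fragments (-0.13, limma adjusted p = 0.0205) or by quantiles (-0.20, limma adjusted p = 0.00164), or with only the 6 libraries compared (limma adjusted p = 0.0440). PRODH, which breaks proline down, fell at both doses (-0.37 and -0.47).

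ATF4 and 13 reference targets were examined because of its known link to the pathway. ATF4 RNA had 113, 108 and 104 FPKM in DMSO, 127, 124 and 139 FPKM at 25 nM and 114, 117 and 115 FPKM at 50 nM. It rose at 25 nM, by 0.26 (SE 0.05, limma adjusted p = 0.00230), and at 50 nM the difference of 0.09 did not pass (limma adjusted p = 0.166). ATF4 is regulated largely at translation, which these data do not measure. Of the 14 genes, 8 rose and 4 fell at 25 nM, and 5 rose and 3 fell at 50 nM. Over all tested genes 26.3% rose and 25.8% fell at 25 nM, and 29.2% rose and 31.5% fell at 50 nM. The falls at 25 nM include CHAC1, which entered the fit through its DMSO libraries. ASNS rose from 9.96 ± 0.25 FPKM to 21.0 ± 2.19 and 18.0 ± 0.44 FPKM (SD, n = 3), by 1.07 and 0.85. CEBPB rose by 0.23 and 0.45. TRIB3, a pseudokinase and commonly used ATF4 target, fell from 17.8 ± 0.55 FPKM to 12.7 ± 0.35 and 10.1 ± 0.55 FPKM, with log2 fold changes of -0.48 and -0.81 (limma adjusted p = 7.49e-05 and 2.27e-06), and VLDLR also fell (-0.34 and -0.48). PSAT1 and ASNS rose and TRIB3 fell at both doses, and the part of ATF4 in these changes was not tested. Several of these further genes overlap another gene on the opposite strand, among them ASNS, DLD, SLC19A1, SLC25A32, TYMS, PRODH, CEBPB and VLDLR, and with strand unknown the reads cannot be told apart. COL18A1 (38.5 to 45.5 FPKM on average) far exceeded SLC19A1, and LAMB1 (66.7 to 84.1 FPKM) exceeded DLD.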

How the data were processed

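RNA of 9 ACHN libraries was sequenced. The authors deposited a table named for read counts whose values are FPKM, and a table of log2 FPKM with no pseudocount for genes above 0 in every library, both on hg38 per the submitters' processing notes. The sources used here name no aligner, counting program or annotation release. For the 18859 genes above 0 in every library, FPKM times length was a whole multiple of 1 step per library (100% of them, tolerance 0.01), which gave the fragments. Fragment totals and the scaling by recovered fragments thus rest on these genes and leave out the others. The deposited scaling was kept: median-of-ratios factors of the FPKM were 1.0041 in every library.

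Group was the only term of the fit of all 9 libraries (limma 3.58.1 in R 4.3.3, lmFit and eBayes with trend and robust, tested on simulated data). The pseudocount of 0.1 shrinks changes of low genes. Libraries of the same replicate number shared little deviation from their group means (correlations from -0.05 to 0.08). The labels do not say whether they were paired.

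The 10 genes, the further lists and the tests were chosen with earlier results of these data known. The rule for named genes took all 10, up to 4 further genes per list with the smallest p at 50 nM (and 1 of the other direction where those go one way), and the 3 nearest genes of PSAT1, SHMT2, SHMT1 and MTHFD1. Some genes that the rule picked are not reported here. ATF4, ATF3 and CHAC1 were named after their values were seen. Alternatives changed the pseudocount, filter, scaling, variance model, libraries in the fit and replicate block, and left out each library.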

Additional observations from a re-analysis of the deposited data

Results flagged for a closer look

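These 3 genes, MTHFD1L, SHMT1 and MTHFSD, differed between the doses while their differences from DMSO had opposite signs. MTHFD1L differed from DMSO by 0.10 at 25 nM and by -0.11 at 50 nM on the log2 scale, and the 50 nM value minus the 25 nM value was -0.21 (limma adjusted p = 0.00761). Neither difference from DMSO passed the threshold on its own. SHMT1 rose by 0.24 at 25 nM and had -0.07 at 50 nM without passing, a difference of -0.30 (limma adjusted p = 0.00397). MTHFSD went the other way, from -0.09 at 25 nM without passing to a rise of 0.27 at 50 nM, a difference of 0.36 (limma adjusted p = 0.00356). Its levels were 2.70 ± 0.06 FPKM in DMSO, 2.53 ± 0.16 FPKM at 25 nM and 3.27 ± 0.15 FPKM at 50 nM (SD, n = 3).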

How the results depend on the processing

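The comparison of the doses depended most on the scaling. Scaled by recovered fragments, 5 members were changed and lower at 50 nM than at 25 nM, and with quantile normalization 4, against 8 as deposited. All tested genes then split into 3153 higher and 1358 lower by fragments, against 2288 and 2917. Against DMSO fragments gave 5295 higher and 4109 lower at 50 nM, against 4540 and 4901, and 3799 and 4261 at 25 nM, against 4084 and 4002. Between the doses, leaving out 1 library gave 3441 to 5829 genes changed and 1469 to 2432 higher at 50 nM. The lowest of both came without 50 nM replicate 1. Members lower at 50 nM than in DMSO numbered 2 in place of 1 with no filter, with only the 6 libraries compared and without 50 nM replicate 2. With quantile normalization PSAT1 between the doses turned to 0.0395 and the MTHFD2 to MTHFD1 ratio to 0.102 on the log2 scale. Some differences from DMSO changed sign without passing. By fragments these were SHMT1 (0.00406) and MTRR (0.00900) at 50 nM. With quantile normalization they were MTHFD1 (0.0339), SLC46A1 (-0.0716), FOLR1 (-0.0975) and MTRR (0.0479) at 25 nM and MTHFD2L (-0.0122), SLC46A1 (-0.270) and FOLR1 (-0.432) at 50 nM. Leaving out 1 library at 25 nM against DMSO gave ranges through 0 for MTHFD1 (-0.0200 to 0.0299), SLC46A1 (-0.0552 to 0.106), FOLR1 (-0.237 to 0.544) and MTRR (-0.0269 to 0.00167), where 25 nM replicate 3 turned SLC46A1, FOLR1 and MTRR, and DMSO replicate 3 (0.0218) or 25 nM replicate 2 turned MTHFD1. The cause of these shifts was not tested. With the replicate block, 6, 5 and 6 members were changed at 25 nM, at 50 nM and between the doses. Of all tested genes 7640, 9107 and 4587 changed in the same comparisons. Between the doses PSAT1 (limma adjusted p = 0.0504) and PYCR1 (limma adjusted p = 0.0610) were lost. ALDH1L2 had 37 to 89 fragments per library, and the part of depth in its values was not tested.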
